A study of Mus musculus with 3 samples.

Results

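Haemogenic endothelium genes, a list of 10, were examined for CUT&Tag signal of Flag-tagged Bcl11a in mouse bone marrow LSK cells. The list holds the vascular endothelial growth factor (VEGF) receptor genes Kdr, Flt1 and Flt4, the transcription factor genes Sox7, Sox17 and Sox18, the cell surface and junction genes Pecam1 and Cdh5, the co-receptor gene Eng and the sialomucin gene Emcn. A peak was counted for a gene when its summit lay inside the gene or within 100 kb of either outer end (mm10, RefSeq) and no other protein-coding gene had a nearer end. By this rule the 10 genes, of 21887 protein-coding genes, received 33 of 38731 peaks in library 1, 39 of 36459 in library 2 and 43 of 43462 in library 3. Overlapping peaks of the libraries joined into 66 regions, of which 19 held a peak of all 3 libraries and are called reproducible. The whole series had 22987 reproducible regions.

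LSK cells are sorted from marrow as lineage-negative cells with Sca-1 and Kit on their surface, and include the stem cells of blood. All 3 libraries belong to 1 group. As the series design states, the mice were knock-ins whose Bcl11a, a repressor with zinc fingers, bears a triple Flag tag on its N-terminal side. The samples' genotype field says wildtype all the same, and age, sex and strain are not given. CUT&Tag uses an antibody to bring a transposase to a protein on chromatin, so that nearby DNA is cut and tagged for sequencing. No second condition and no untagged or antibody-free library was analysed here. Binding and accessible chromatin cut without the tagged protein therefore cannot be told apart, and no comparison between groups could be tested. Nothing in the labels says that the libraries came from separate animals, so SDs measure the spread between these libraries, which may be technical. The peak lists give no read totals. The summit pileup of each peak, in fragments, was solved from its fold enrichment and p-value. The lowest background of any peak, in fragments per base, came to 1.07 in library 1, 1.41 in library 2 and 1.95 in library 3. This lowest value is called the library background.

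Haemogenic endothelium is the embryonic vessel lining from which the first blood stem cells bud. Its cells carry VEGF receptors, the junction proteins of vessels and SoxF transcription factors, and they lose much of this endothelial programme as they turn into blood. Adult LSK cells descend from them, and some of these proteins, such as endoglin and endomucin, are also known from adult blood stem cells. The files hold no RNA measurement, so occupancy says nothing here about expression. Among markers of LSK cells, Kit had 5 reproducible regions and Cd34 and Flt3 had 4 each, while Ly6a, which encodes Sca-1, and Cd48 had 0.

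Start sites were known from RefSeq promoter sequences (GRCm38.p6, the assembly behind mm10) for 5 of the 10 genes. Pecam1, Cdh5, Sox7, Sox17 and Sox18 are not in the promoter table used here. The 250 bases before each of the 5 start sites are shown because the genes differed in how many libraries had a peak over the start site. That number was 3 for Kdr (chr5:75978456-75978705, minus strand) and Flt4 (chr11:49609429-49609678, plus strand) and 2 for Flt1 (chr5:147726012-147726261, minus strand). It was 0 for Eng (chr2:32646345-32646594, plus strand) and Emcn (chr3:137340828-137341077, plus strand). Flt1, Eng and Emcn are shown for contrast, a choice made after their values were seen. Sequences run 5′ to 3′ towards the start site, and capitals mark CpG dinucleotides.
Kdr: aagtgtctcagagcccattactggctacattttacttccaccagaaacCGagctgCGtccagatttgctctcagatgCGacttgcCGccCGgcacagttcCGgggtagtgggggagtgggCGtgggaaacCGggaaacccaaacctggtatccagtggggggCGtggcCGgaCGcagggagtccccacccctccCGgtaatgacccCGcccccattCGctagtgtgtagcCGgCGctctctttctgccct
Flt4: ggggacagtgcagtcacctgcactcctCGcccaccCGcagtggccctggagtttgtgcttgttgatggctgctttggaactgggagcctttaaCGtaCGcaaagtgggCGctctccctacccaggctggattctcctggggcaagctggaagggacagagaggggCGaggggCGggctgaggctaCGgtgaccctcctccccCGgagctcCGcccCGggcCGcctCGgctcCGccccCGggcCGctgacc
Flt1: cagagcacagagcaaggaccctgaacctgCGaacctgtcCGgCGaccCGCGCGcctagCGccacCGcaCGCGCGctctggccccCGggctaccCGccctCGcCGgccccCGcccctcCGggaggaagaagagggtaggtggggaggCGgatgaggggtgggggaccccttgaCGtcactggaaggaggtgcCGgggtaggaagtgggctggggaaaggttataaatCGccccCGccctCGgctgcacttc
Eng: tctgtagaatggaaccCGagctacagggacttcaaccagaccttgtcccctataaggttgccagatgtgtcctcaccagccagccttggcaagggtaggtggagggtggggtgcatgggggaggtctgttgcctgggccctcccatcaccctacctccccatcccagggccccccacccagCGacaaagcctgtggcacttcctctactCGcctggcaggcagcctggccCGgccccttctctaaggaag
Emcn: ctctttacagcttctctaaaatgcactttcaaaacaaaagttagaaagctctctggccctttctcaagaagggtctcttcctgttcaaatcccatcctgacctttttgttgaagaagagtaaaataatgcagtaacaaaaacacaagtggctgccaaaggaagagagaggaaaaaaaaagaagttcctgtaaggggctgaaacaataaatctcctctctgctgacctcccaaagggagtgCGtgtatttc
The Kdr and Flt4 sequences hold 16 CpG each and that of Flt1 23, whereas Eng has 4 and Emcn 1. Their G and C content was 61.6% for Kdr, 68.4% for Flt4, 70.4% for Flt1, 62.4% for Eng and 40.8% for Emcn. Over 17492 protein-coding genes with a promoter in the table, the 7186 with a reproducible region over the start site had a median of 18 CpG and 61.6% G and C. The other 10306 had a median of 4 CpG and 49.6%. Of the 5 members with a known start, 2 were covered at it, against 41.1% of these genes. The letters TGACCA, the motif known for BCL11A, do not occur on either strand of the 5 promoters in the full window, which also takes in 50 bases after the start site. The same letters are in 12.5% of all these promoters. The same is true of AGATAA, a motif of factors such as GATA2 that 9.96% of promoters hold. It is true of the ETS factor motif CCGGAAG, held by 11.9%, and of the RUNX factor motif TGTGGT, held by 15.1%. ACAAT, a SOX factor motif held by 28.5% of promoters, has 1 match, in Emcn, beginning at position -49 from the start site. It overlaps no other motif.

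Every one of the 10 genes had a reproducible region, where 53.6% of protein-coding genes did. With regions of any library, 73% of protein-coding genes had 1 or more. A lone reproducible region was given to 6 genes (Flt4, Sox7, Sox18, Cdh5, Eng and Emcn), Pecam1 had 2, Kdr and Sox17 had 3 each and Flt1 had 5. With library 1 left out, Flt1 had 9 regions with peaks of both remaining libraries, Kdr 4, Pecam1 3 and Sox18 2. With library 2 left out, Sox18, Cdh5 and Eng had 2 each. With library 3 left out, Sox17 had 4. The remaining genes kept their counts in each case. Of the 19 regions, 12 had their summit inside the gene and 7 outside it. The genes lie in wide surroundings. The stretch of DNA for which a gene's ends were the nearest coding ends had a median of 123 kb for them and 46.4 kb for all protein-coding genes. Per 100 kb of that stretch there were 1.52 reproducible regions for the 10 genes, or 1.44 without 1 very high Flt1 region. For all protein-coding genes there were 1.17, with no region left out. This pair of densities was not tested.

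**Figure D1:**
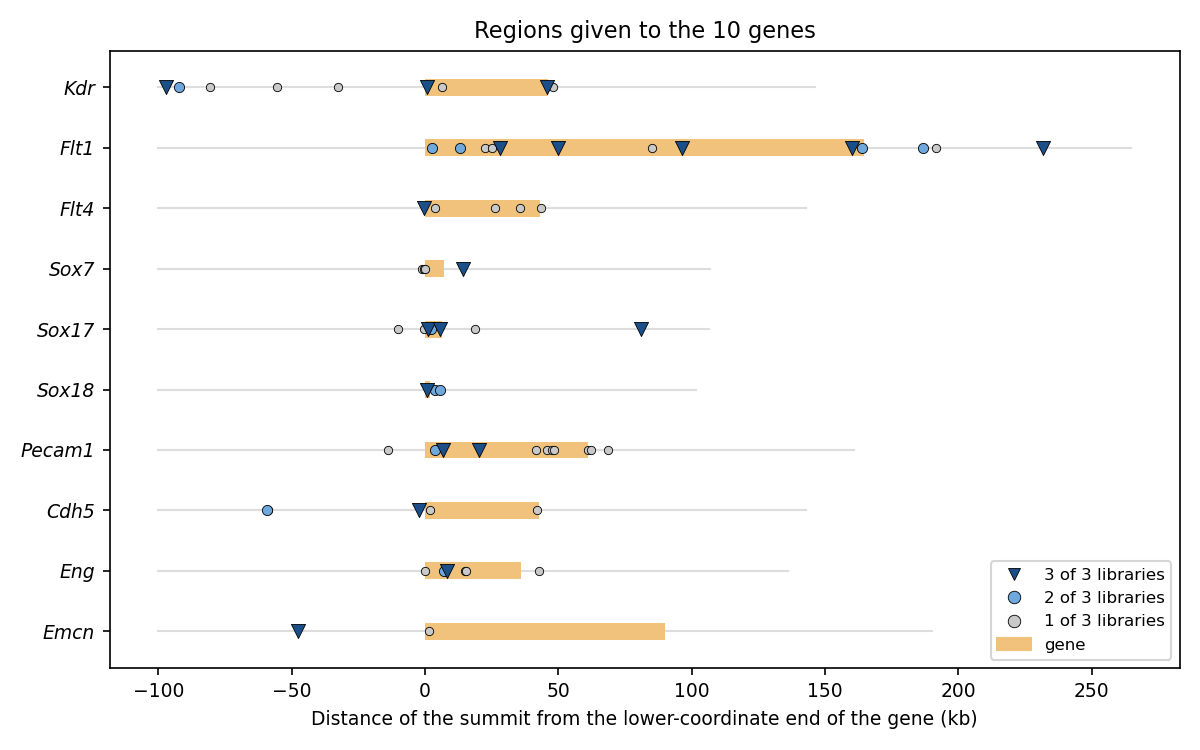
Position of the 66 regions of the 10 genes, as the distance of the summit from the lower-coordinate end of each gene in kb. Orange bars are genes, grey lines the 100 kb on either side, dark triangles the 19 reproducible regions, and circles regions with peaks of 2 libraries or 1; Emcn has 2 regions in all and Flt1 has 13.

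Kdr encodes VEGF receptor 2, the main signalling receptor for VEGF-A on endothelium and a marker of the mesoderm that forms blood and vessels. It is transcribed towards lower coordinates. The region over its start site (chr5:75977651-75978873) was 1223 bp wide, and its summit lay 3 bp inside the gene from the start. There the fold enrichment of the summit over the caller's local background was 8.76, 4.72 and 5.94 in libraries 1, 2 and 3, from pileups of 19, 12 and 20 fragments. Library 1 was the highest, and the mean was 6.47 ± 2.07 (SD, n = 3). The opposite end of the gene carried a region of similar strength (chr5:75933462-75934290), 905 bp inside the outer end, with 6.77, 7.73 and 5.77 and a mean of 6.76 ± 0.98 (SD, n = 3). The difference between these means is smaller than the SD of the region at the start site.

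A distal Kdr region (chr5:75835232-75836097) lay 97119 bp beyond the end of the gene, on the side away from its start site. It had 4.38, 5.20 and 5.37-fold enrichment (mean 4.98 ± 0.53, SD, n = 3), and its pileups of 16, 28 and 36 fragments were the highest of the Kdr regions in libraries 2 and 3. It sits close to the 100 kb limit of the rule. Just beyond that limit, and not counted, were reproducible regions 102287 bp and 124236 bp from the same end, with means of 5.70 ± 0.74 and 5.51 ± 1.47 (SD, n = 3). Between the distal region and the gene, 1 region had peaks of libraries 2 and 3, and 3 more had a peak of 1 library.

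Flt1 encodes VEGF receptor 1, which binds VEGF-A tightly, signals weakly and acts largely as a trap for it. It is the longest of the 10 genes (164835 bp) and by the nearest coding end had the most reproducible regions, 5, a number that 3.39% of protein-coding genes reach or exceed. With the ends of all annotated genes competing it had 2 and Kdr 3, and with a reach of 200 kb Kdr had 5 as well. Its region at chr5:147611435-147611721 stands apart from every other region of these genes. Fold enrichment there was 50.4, 44.6 and 39.1 in libraries 1, 2 and 3 (mean 44.7 ± 5.62, SD, n = 3). The pileups were 852, 1019 and 784 fragments, between 403 and 798 times the library background. The local background at these summits was itself higher than that, at 15.9, 21.9 and 19.1 fragments in libraries 1, 2 and 3. The peaks of all 3 libraries began at the same base and were 278 to 287 bp wide. By mean fold enrichment it ranked 7 among the 22987 reproducible regions. A pileup over 100 times the background in all 3 libraries was found in 332 reproducible regions, and in 64 of these the 3 peaks began at the same base, as they did in 342 of all reproducible regions. What gives this narrow, very high signal was not tested, and the strongest fold of Flt1 and the list's density, median fold and median pileup are given with and without the region.

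Without that region, the strongest of Flt1 was another one inside the gene (chr5:147657678-147658516), with 8.50, 11.2 and 9.63 and a mean of 9.76 ± 1.33 (SD, n = 3). Its mean put it at percentile 86.8 of all reproducible regions, and an end of the long noncoding RNA gene Gm35383 lay 1580 bp from its summit. A further one (chr5:147721429-147722040) lay 4348 bp inside the gene from the start site, with 8.46, 5.80 and 7.53 (mean 7.26 ± 1.35). The reproducible region nearest the gene's finish (chr5:147589696-147590224) had 6.07, 5.12 and 7.44 (mean 6.21 ± 1.17), and the one 67304 bp upstream of the start (chr5:147793074-147793461) had 9.04, 8.65 and 5.09 (mean 7.59 ± 2.18; SD, n = 3 for each). Library 3 was the lowest in the upstream region and the highest in the reproducible one nearest the finish. A pair of regions with peaks of libraries 2 and 3 lay nearer still, 2539 bp and 13118 bp inside that end. The Flt1 start site itself was covered in libraries 2 and 3, at 4.07 and 3.78-fold from 18 and 19 fragments, and had no peak in library 1. Another upstream region (chr5:147748035-147748471) also had peaks of libraries 2 and 3, at 7.04 and 6.37. These were the highest values of any region of the 10 genes that was not reproducible.

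Flt4 encodes VEGF receptor 3, the receptor for VEGF-C that drives growth of lymphatic vessels. Its reproducible region covered the start site (chr11:49609224-49610100), with the summit 242 bp upstream of it. The values were 5.0, 4.28 and 3.96 (mean 4.41 ± 0.53, SD, n = 3), from 15, 16 and 20 fragments, and 13.8% of reproducible regions had as low a mean or a lower one. The 3 summits were spread over 583 bp, the widest spread among the 19 regions, where the median was 136 bp for these genes and 128 bp for all reproducible regions. The other 4 regions of Flt4 had a peak of 1 library each.

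The SoxF factors Sox7, Sox17 and Sox18 are closely related transcription factors of endothelium. Sox17 is also needed by fetal blood stem cells, and Sox18 for lymphatic vessels. Sox7 had 1 reproducible region, 7080 bp beyond the higher-coordinate end of the gene (chr14:63957306-63958222). At 11.4, 9.96 and 8.27 (mean 9.89 ± 1.59, SD, n = 3) and 40, 48 and 49 fragments, it was the strongest of the 19 apart from the very high Flt1 region. At the lower-coordinate end of Sox7 each library had a peak, at 3 separate places that did not join. Their folds were 3.74 in library 1, 4.02 in library 2 and 3.63 in library 3, with 9, 11 and 12 fragments.

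Sox17 had 3 reproducible regions, and no region within its reach was nearer to another protein-coding gene. Both regions in the gene lay near its ends, at chr1:4491699-4492438 and chr1:4496342-4496836. The one at the lower-coordinate end had 4.09, 3.25 and 3.26 (mean 3.53 ± 0.48), the lowest of the 19 regions, and the one at the higher-coordinate end had 5.56, 6.32 and 6.57 (mean 6.15 ± 0.52; SD, n = 3 for each). The 3 values at the higher-coordinate end were all above those at the lower. A distal region 74537 bp beyond the higher-coordinate end (chr1:4571589-4572214) had 7.74, 6.65 and 8.83 (mean 7.74 ± 1.09, SD, n = 3), the largest fold enrichment at this gene. By pileup over the library background, however, the region at chr1:4496342-4496836 was the strongest of Sox17, with a mean of 18.2 times the background against 12.5 for the distal one. Counting noncoding genes too, an end of the long noncoding RNA gene Gm39586 was nearer to the distal region, at 23094 bp. With the ends of all annotated genes competing, Sox17 had 2 reproducible regions.

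Sox18 is short (1804 bp), and its reproducible region (chr2:181670243-181671095) lay inside it. The values were close together, at 6.32, 6.72 and 5.90 (mean 6.31 ± 0.41, SD, n = 3), from 24, 32 and 41 fragments. This is the smallest SD among the 19 regions. Within 5 kb above the gene there were 2 more regions with peaks of 2 libraries each, at 2065 bp and 3953 bp from its end. Close neighbours limit what is counted for Sox18: within 100 kb of it, 7 other reproducible regions were nearer to 6 other genes.

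Pecam1, an adhesion molecule of endothelium that is also found on blood cells, and Cdh5, the VE-cadherin of endothelial adherens junctions, are classic endothelial surface genes. Both reproducible regions of Pecam1 lay inside the gene. One (chr11:106660610-106661068) had 6.12, 7.63 and 6.71 (mean 6.82 ± 0.76) and the other (chr11:106674216-106675084) 6.40, 5.55 and 6.20 (mean 6.05 ± 0.44; SD, n = 3 for each). Neither was within 1 kb of an end, and the library values of the pair overlapped. Pecam1 also had 8 regions with a peak of 1 library, more than any other of the 10 genes, and their pileups were 8 to 15 fragments. Cdh5 had a reproducible region 2047 bp outside its lower-coordinate end (chr8:104099084-104099824), with 3.97, 5.51 and 4.68 (mean 4.72 ± 0.77, SD, n = 3) and 11, 22 and 27 fragments.

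Eng encodes endoglin, a TGF-beta co-receptor of endothelium that also marks blood stem cells. Its reproducible region (chr2:32654643-32655346) lay 8440 bp into the gene from the start site, with 4.72, 6.49 and 4.97 (mean 5.39 ± 0.96, SD, n = 3). An end of the microRNA gene Mir1954 lay nearer to that summit, at 2621 bp. Near the start site itself, a peak of library 3 alone lay 170 bp inside the gene, at 4.01-fold from 25 fragments. Eng stands in a crowded neighbourhood, where 18 other reproducible regions within 100 kb were nearer to 11 other genes, among them Ak1, Cdk9 and Fpgs. Emcn encodes endomucin, a sialomucin of venous and capillary endothelium that also marks blood stem cells. It is 90008 bp long and had the fewest regions of the 10 genes, 2 in all. Its reproducible region lay 47764 bp upstream of the start site (chr3:137293072-137293539), with 3.87, 5.82 and 5.77 (mean 5.15 ± 1.11, SD, n = 3). Its pileups were 7, 13 and 16 fragments, on average 8.01 times the library background and the weakest of the 19 by that measure, with library 1 the lowest. Counting noncoding genes too, an end of the long noncoding RNA gene Gm567 was nearer to it, at 3697 bp. Inside Emcn there was 1 peak, of library 2, with 8 fragments.

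**Figure D2:**
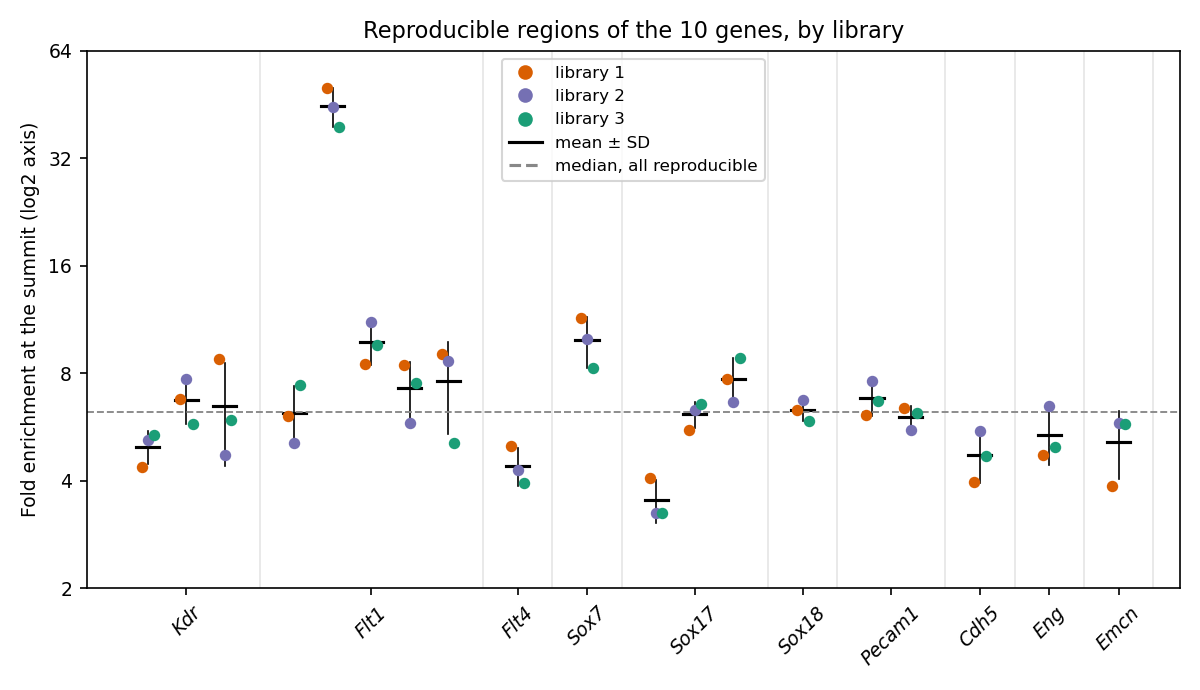
Fold enrichment at the summit of the 19 reproducible regions in each library, grouped by gene and ordered by position, on a log2 axis; bars are the mean ± SD of 3 libraries. The very high Flt1 region (mean 44.7) stands alone, and the other 18 means lie between 3.53 and 9.89, around the median of all reproducible regions (6.25, dashed).

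As a list, the regions of the 10 genes were close in strength to those elsewhere. Their median fold enrichment was 6.31, against 6.25 for all reproducible regions. Without the very high Flt1 region it was 6.26, against 6.22 for all without the 332 regions over 100 times background. Above the median of 6.25 lay 10 of the 19. The median summit pileup was 17.8 times the library background, or 15.5 without the very high region. For all reproducible regions it was 17.7, with the 332 kept. The median width was 740 bp, against 752 bp. Of the 66 regions of these genes, 19 (28.8%) had a peak of all 3 libraries, where 39% of all regions given to a protein-coding gene did, and 37.8% of all regions of the series. Of the other 47 regions, 11 had peaks of 2 libraries and 36 a peak of 1. Peaks in regions of 1 library had a median pileup of 11 fragments and those in reproducible regions one of 23. Libraries 2 and 3 shared 7 of the 11 regions, libraries 1 and 3 shared 3, and libraries 1 and 2 shared 1. The regions of 1 library were 10, 12 and 14 in libraries 1, 2 and 3.

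In 4 of the 10 genes, Kdr, Flt4, Sox17 and Sox18, an outer end had a reproducible region less than 1 kb away, where 45.2% of protein-coding genes had such an end. With a window of 250 bp it was 2 of the 10, against 40.7%, and with the 10000 strongest peaks of each library 0 of the 10, against 20.6%. Other settings stayed near the share of all genes. A window of 3 kb gave 5 of the 10, against 50.8%, and regions of at least 2 libraries gave 5, against 51.6%. Keeping −log10 q of at least 5 gave 4, against 38.1%. Taken singly, libraries 1, 2 and 3 had a peak there in 5, 7 and 7 of the 10 genes, against 50%, 52.5% and 53.9% of protein-coding genes. The summit lay over 1 kb from every coding end in 14 of the 19 regions (73.7%), against 63% of all reproducible regions. At least 3 reproducible regions were given to 3 of the 10 genes, Kdr, Flt1 and Sox17, against 10.6% of protein-coding genes. Without the very high region, Flt1 still had 4. With a reach of 50 kb, or with −log10 q of at least 5, Kdr and Sox17 had 2 each. With the ends of all annotated genes competing, Kdr kept 3, and Flt1 and Sox17 had 2 each. These genes also lie in wide surroundings, at 227 kb for Kdr, 238 kb for Flt1 and 147 kb for Sox17. The median of all protein-coding genes was 46.4 kb.

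**Figure D3:**
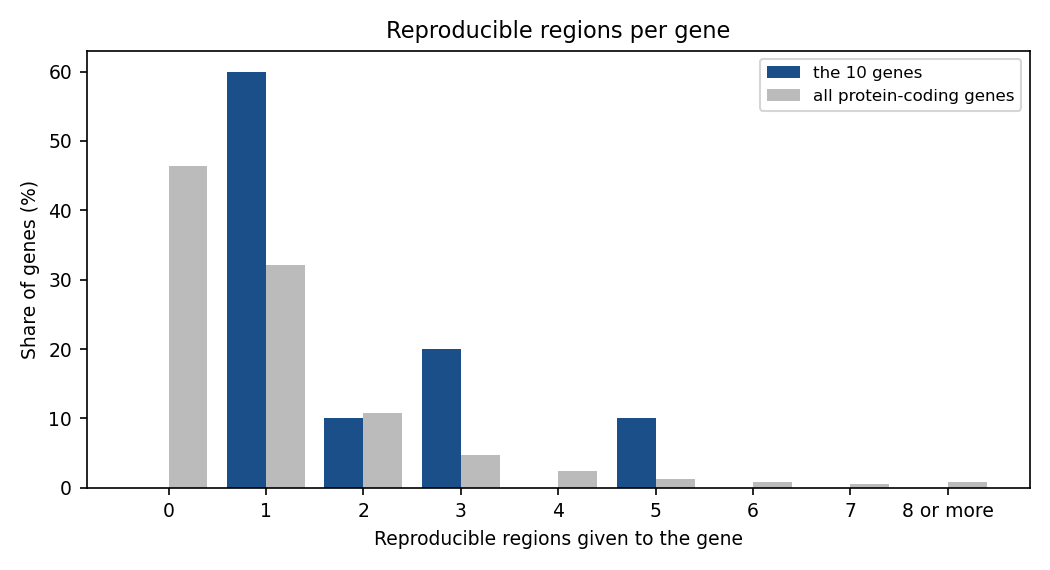
Share of genes, in percent, by the number of reproducible regions given to them, for the 10 haemogenic endothelium genes (dark) and all 21887 protein-coding genes (grey). None of the 10 genes is at 0, 6 of them are at 1, and the highest, Flt1, is at 5.

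Other genes of vessels and of blood stem cell emergence were counted by the same rule. For each list, the share of all protein-coding genes occupied at an end was 45.2%. An end was occupied in 6 of 7 VEGF ligand and co-receptor genes, among them Vegfa, the main ligand of Kdr and Flt1, with 7 reproducible regions, and the co-receptor gene Nrp2 with 4. Vegfd had none. The list of arterial Notch genes also held Ephb4, a receptor gene of venous endothelium. All 11 genes of that list were occupied at an end, led by Hes1 with 9 regions, Notch1 with 6 and Dll4 with 5. The Tie receptor and angiopoietin genes, counted with the angiopoietin-like gene Angptl1, lay below that. They had 0 of 5 genes occupied at an end and 1 region in all. That region, given to the receptor gene Tie1, had a mean of 12.2 ± 0.98 (SD, n = 3), above the 18 regions of the 10 genes other than the very high one. Other endothelial surface and junction genes were occupied at an end in 11 of 16 cases. Egfl7 led them with 8 regions, and Acvrl1, the type I receptor that works with endoglin, had 4.

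Factors known to drive blood stem cell emergence were occupied at an end in 10 of 12 cases, against 45.2% of protein-coding genes. Runx1 had 11 regions, Meis1 8 and Lyl1 7. LSK cell markers were occupied at an end in 5 of 8 cases. ETS factors of stem cells were occupied at an end in 7 of 9 cases, with 10 regions for Erg, 9 for Etv6 and 8 for Elk3. Per 100 kb of surrounding DNA, reproducible regions numbered 1.52 for the haemogenic endothelium genes. The emergence factors had 2.64, the ETS factors 3.10, the arterial Notch genes 3.89, the other endothelial surface genes 2.88, the LSK cell markers 2.45 and the VEGF ligands and co-receptors 1.84. The Tie receptors and angiopoietins had 0.115. The median fold enrichment of regions was 6.31 for the haemogenic endothelium genes. It was higher for the LSK cell markers, at 7.26, and for the single Tie1 region, and lower for the VEGF ligands and co-receptors (6.23), the ETS factors (5.78), the emergence factors (5.74), the arterial Notch genes (5.31) and the other endothelial surface genes (5.21). These lists were chosen with earlier results of these data known and are not tested against each other.

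**Figure D4:**
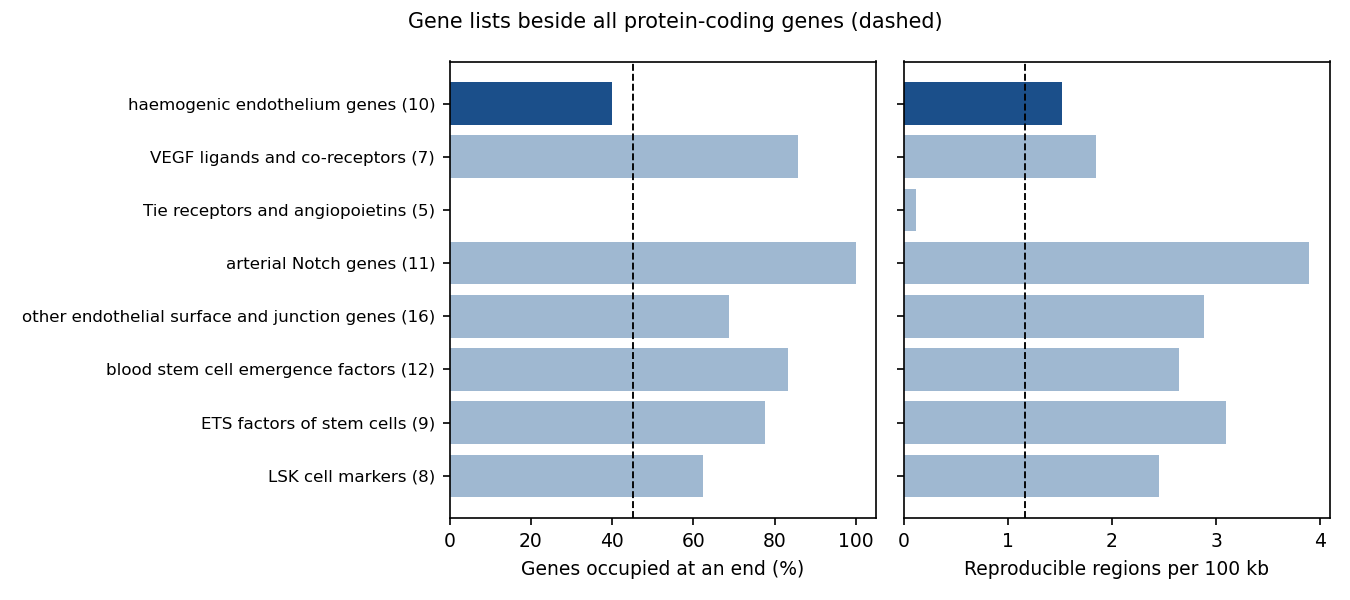
Share of genes occupied at an end, in percent (left), and reproducible regions per 100 kb of surrounding DNA (right), for the haemogenic endothelium genes (dark) and 7 other lists, with the number of genes in brackets; dashed lines mark all protein-coding genes (45.2% and 1.17). The haemogenic endothelium genes lie just below the line on the left (4 of 10) and above it on the right (1.52).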

How the data were processed

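Flag CUT&Tag was measured in 3 libraries of sorted LSK cells. The submitters' processing notes name Bowtie2, SAMtools, MACS2 and the build mm10, without versions, and no source used here says whether duplicates were removed. The authors deposited 1 peak list per library, with a fold enrichment (a ratio of summit to local background), a −log10 p and a −log10 q for each peak, and the lowest −log10 q in the deposited lists is 1.30. Fold enrichment is the authors' own value and only describes and ranks peaks.

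Only peaks on the autosomes, X and Y were used. They were merged across libraries from 1 bp of overlap on, in Python 3.11.15 with pandas 2.3.3 and scipy 1.17.1. A region took each library's strongest peak, and its summit is the median over libraries. Pileups were solved as pileup plus 1 over background plus 1, with a Poisson tail for p; within 0.05 of a fragment, 100% came out whole. The pileup step and the assignment of regions to genes were tested on simulated data. The simulated peaks of a site had the same coordinates in every library, so the joining of shifted peaks was not tested. Genes came from RefSeq GRCm38.p6, which gives outer ends without exons, so exon, intron and UTR classes are not reported. With 1 group no test was run. Text names all 10 genes, their reproducible regions and up to 4 leading genes of other lists. The members and lists were chosen with earlier results of these data known.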

Additional observations from a re-analysis of the deposited data

How the results depend on the processing

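The counts were recomputed under other settings, 1 at a time. Keeping −log10 q of at least 5 left 20, 23 and 28 peaks of the 10 genes in libraries 1, 2 and 3 and 15 reproducible regions, in 8 of the 10 genes (none for Cdh5 and Emcn), against 45.4% of protein-coding genes. The 10000 strongest peaks of each library left 6, 6 and 9 peaks, 3 reproducible regions in 2 genes (Flt1 and Sox7) and 0 genes occupied at an end, where 5457 protein-coding genes (24.9%) kept a region and 4515 (20.6%) an occupied end. Regions in at least 2 libraries numbered 30. Counting every peak within 100 kb, nearest or not, gave 89, 97 and 108 peaks and 60 reproducible regions. With an end window of 250 bp, 2 of the 10 genes were occupied, against 40.7% of protein-coding genes. A window of 3 kb gave 5, against 50.8%. With 50% reciprocal overlap 8 of the 10 genes had a region (none for Flt4 and Eng), against 47.5%. With the ends of all annotated genes competing 8 did (none for Eng and Emcn), against 47.6%, and Flt1 and Sox17 each fell to 2 regions. Leaving out a library gave 20 to 26 reproducible regions, 10 genes with a region in each case, and 4 to 5 genes occupied at an end, against 55.6% to 57.6% of protein-coding genes with a region and 46.2% to 48.8% occupied. Flt1 had 9 regions without library 1 and 5 without library 2 or 3. Without the very high region, an alternative chosen after seeing the data, the strongest fold of Flt1 was 9.76, against 44.7. By pileup 7 of 10 genes kept the same strongest region, with Kdr, Pecam1 and Sox17 changing. Regions of 1 library rested on a median of 11 fragments, and why such a peak was missing from another library was not tested. No paired analysis was possible because the series has 1 group.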
